A study of Macaca mulatta with 161 samples.

Results

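The cytosolic ribosomal protein genes described here are the table's rows whose symbol is RPL or RPS followed by a number, with an optional A, X, Y or L ending, plus RPSA, RPLP0, RPLP1 and RPLP2. The rule finds 81 of 16049 genes. Of these, 49 are named for the large and 32 for the small ribosomal subunit, and 6 are paralogs that carry an L after the number of the parent gene (RPL3L, RPL10L, RPL22L1, RPL26L1, RPL39L and RPS27L). Mean FPKM (a level per transcript length, relative to all reads of the cell) over all cells was at least 1 for 79 members. The other two, RPL3L and RPS10, were left out of all differences.

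A ribosome joins a small subunit, which reads the messenger RNA, to a large subunit, which forms the peptide bond. Each ribosomal protein is used about once per particle, so that cells make the proteins in balanced amounts, and many of their messages share a pyrimidine tract at the start through which growth signals control translation. In the blastocyst the inner cell mass separates into the epiblast (EPI), which forms the embryo proper, and the primitive endoderm (PE), which forms the yolk sac lining, while the outer trophectoderm (TE) forms the placenta.

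The study sequenced polyadenylated RNA of 161 single inner cells of rhesus monkey (Macaca mulatta) blastocysts, 1 library per cell. Embryos came from oocytes of females given hormones and were cultured in HECM-9 medium with serum. Outer cells were marked with the dye PKH26, and undyed cells were collected. The groups are 44 cells of early blastocysts (small cavity, about embryonic day 5), 39 of middle blastocysts (about day 5.5), 52 of late blastocysts (fully expanded, about day 6) and 26 of hatched blastocysts, called hatching below (about day 7). No group carries a treatment or a genetic change. The labels name no embryo or animal behind a cell, so each stage counts as 1 sample, cells are not replicates, and no test between groups was made. All differences below are descriptions of these libraries.

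Whole reads recovered from the table had a median of 11.9 M reads per cell (M, mega) (range 3.15 to 20.1 M reads), with stage medians of 11.2 to 12.8 M reads. Clustering without any member split the late cells into 23 EPI-like and 29 PE-like cells, and the hatching cells into 19 EPI-like and 7 PE-like cells. In the EPI-like clusters 10 of 10 EPI markers reached an FPKM of 1 in at least 50% of cells, and in the PE-like clusters 10 (late) and 11 (hatching) of 11 PE markers did. Early and middle cells were not split into classes. Among 12 TE markers, 4 to 6 reached an FPKM of 1 in at least 50% of cells of each stage, while VGLL1 stood at 0 in all early, late and hatching cells. The summed TE level had stage medians of 2093 to 3491 FPKM. A list of 7 markers of cumulus cells, which surround the oocyte, summed to a median of 0 FPKM in early, middle and late cells and 3.94 in hatching cells.

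Ranges of the numbers in the cells' titles also stood apart within a stage. The ranges are 1 to 28 and 29 to 48 in early, 3 to 29 and 32 to 55 in middle, 3 to 22 and 25 to 61 in late, and 1 to 18 and 22 to 47 in hatching cells. The middle, late and hatching ranges meet at gaps in the numbering, whereas the early ranges meet where clusters of cells change. Clusters made without the members separated all 12 higher from all 25 lower middle numbers. In early cells they held 18 of the 19 higher and 24 of the 25 lower numbers, which follows from how that border was placed. The labels do not say what the numbers stand for, and 7 more cells (2 middle and 5 late) carry titles that start with HS. All 7 hatching PE-like cells have numbers 1 to 18, a range they share with 5 EPI-like cells. Each stage difference of the family median below is given also within these ranges. The border differs by stage, and no label links the lower or higher range of 1 stage to that of another. Values within a range across stages thus pair the ranges by position only, not by a known shared origin.

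The members were among the most abundant messages of the inner cells. The median member had a mean of 670 FPKM, against 12.5 FPKM for the median of the 9781 genes with a mean FPKM of at least 1. An FPKM of 1 or more was found in every cell for 75 members, 27 members had a mean of at least 1000 FPKM, and 33 were among the 100 genes of highest mean FPKM. Among the 6 highest members were RPS18 with a mean of 4885 FPKM, RPS12 with 4605, RPS9 with 2635, RPL8 with 2579 and RPL35 with 2541. The first 3 of these belong to the small subunit. RPL8 lies close to the site of peptide bond formation, and RPL35 lies near the exit of the nascent chain.

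Small-subunit members stood at a higher level per length than large-subunit members. Within a cell, the median log2(FPKM + 1) of 30 small-subunit members was subtracted from that of 44 large-subunit members, with paralogs and RPS10 left out. This difference had a median of -0.91 in early, -0.63 in middle, -0.64 in late and -0.61 in hatching cells. The highest value in any early cell was -0.47, so the order held in every early cell, and it also held in every cell of the other stages, where the highest values were -0.10, -0.05 and -0.06. Levels of members with processed pseudogenes or near-identical copies are uncertain where reads could map to more than 1 copy, and how the authors counted such reads is not given in the sources used here.

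At the low end, 3 members were listed at 0 in at least 50% of cells. RPL3L, a striated-muscle paralog of the peptide-bond-site protein RPL3, was at 0 in 156 of 161 cells and reached an FPKM of 1 in 1 late cell. RPL10L, a testis-enriched paralog of RPL10, reached an FPKM of 1 in 6 of 44 early, 7 of 39 middle, 3 of 52 late and 1 of 26 hatching cells. RPS10, a core small-subunit protein, reached it in only 19 of 161 cells and never exceeded 12.2 FPKM. Its read-through neighbour RPS10-NUDT3, which has a row of its own, was listed at 0 in every cell. For RPL10L the share was 13.6% of early cells (exact 95% interval 5.17 to 27.4%) and 3.85% of hatching cells (0.0973 to 19.6%). All 6 early cells had lower title numbers, since the 19 early cells of higher numbers reached at most 0.088 FPKM. Intervals here cover counting error of cells only. Cells are not replicates, so the intervals do not compare the stages.

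The other paralogs were expressed in most cells. RPL22L1 is an RNA-binding protein that stands in for its parent RPL22. It exceeded RPL22 in 37 of 44 early, 26 of 39 middle, 44 of 52 late and 23 of 26 hatching cells. The median of RPL22L1 minus RPL22 was 0.80, 0.48, 0.90 and 1.44 log2 units in these stages, and all 19 hatching EPI-like cells had more RPL22L1 than RPL22. RPL22 itself had stage medians of 152, 88.7, 104 and 110 FPKM. RPL26L1 and RPS27L, the latter a p53-responsive gene in other systems, lay below their parents in every cell. RPL39L, a paralog of the exit-tunnel protein RPL39, lay below RPL39 in all but 1 early and 3 late cells and was found at an FPKM of 1 in 128 of 161 cells.

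**Figure D1:**
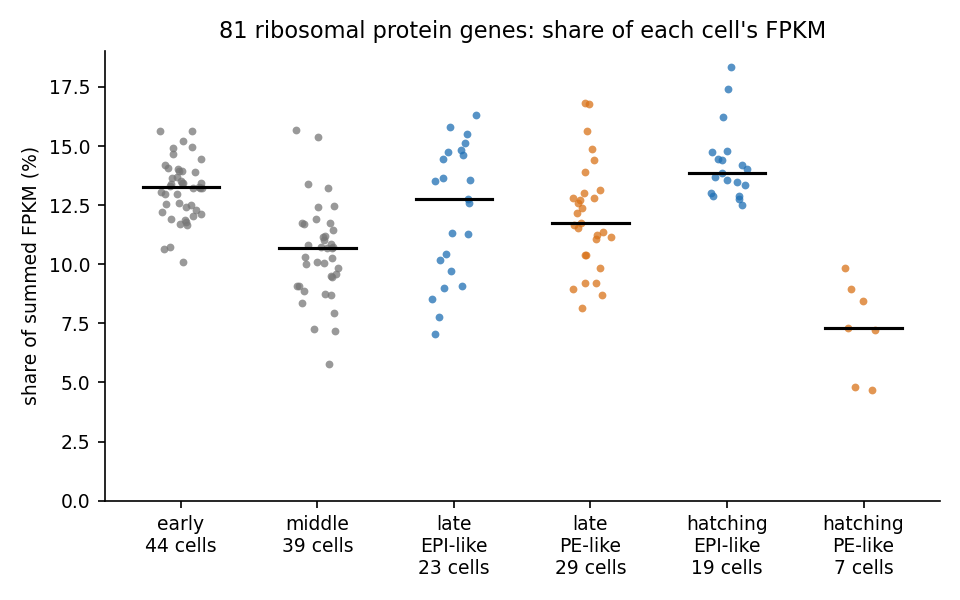
Summed FPKM of the 81 members as a percent of a cell's summed FPKM (vertical axis), by stage and, in late and hatching cells, by class. Each point is 1 cell and each line the median of the group. The 7 hatching PE-like cells (4.70 to 9.86%) lie below all 19 hatching EPI-like cells (12.5 to 18.3%).

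The members took up a smaller share of the RNA in middle than in early cells. Their share of a cell's summed FPKM ran from 10.1 to 15.6% in early cells with a median of 13.2%, and from 5.76 to 15.7% in middle cells with a median of 10.7%. The groups overlapped, with the middle cells spread further down. In reads, which weigh long messages more, the median shares were 6.30 and 4.4%.

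Between these stages 74 of 79 members had a lower mean log2(FPKM + 1) in middle cells, where 43.6% of all 9781 genes were lower. The median over members was -0.59 and that over all genes 0.08. The difference was at least 1 log2 unit for 5 members, or 6.33% of them, beside 3.61% of all genes. With every cell rescaled to the same summed FPKM the median over all genes became 0.20 and that over members -0.38, 68 members were lower, and none differed by 1 log2 unit. The subunits had similar values, with medians of -0.57 for large-subunit and -0.64 for small-subunit members. Within the lower title numbers the member median was -0.52, and within the higher numbers it was -0.84.

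RPS29, a short zinc-binding protein of the small subunit, had the lowest difference. Its FPKM ran from 727 to 3392 with a median of 2050 in early cells, and from 126 to 2031 with a median of 1016 in middle cells. The difference of means was -1.11 log2 units. Every middle cell thus lay below the early median, although the ranges overlapped.

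RPL22L1 followed with a difference of -1.10, from a median of 238 FPKM (56.1 to 448) to 108 FPKM (32.8 to 490). RPS21, which acts in the maturation of the small subunit, had -1.04, from 1554 FPKM (594 to 2200) to 787 FPKM (111 to 1420). RPL39 at -1.02 and RPL39L at -1.01 complete the 5 members. Higher in middle cells were RPSA, RPL26L1, RPL14, RPL10L and RPL4, and the highest was RPSA, a small-subunit protein also known as the laminin receptor precursor, at 0.32. RPSA had medians of 766 FPKM (277 to 1266) in early and 926 FPKM (531 to 1650) in middle cells, with most of the ranges shared.

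RPL10 and RPS4X were also low in middle cells, with differences of -0.95 and -0.97. Among lower title numbers the early and middle means were 10.8 and 9.545 log2 units for RPL10, and 11.28 and 10 for RPS4X. Among higher numbers they were closer, at 10.77 and 10.47 for RPL10, and 11.01 and 10.65 for RPS4X. RPL10, a protein added late to the large subunit, ran from 965 to 2248 FPKM in early cells (median 1773) and from 487 to 1918 FPKM in middle cells (median 838). RPS4X ran from 1519 to 5377 FPKM in early cells (median 2269) and from 733 to 2296 FPKM in middle cells (median 1109). Within the middle stage, both were higher in the cells numbered 32 to 55 than in those numbered 3 to 29, by 0.93 for RPL10 and 0.65 for RPS4X, although the family as a whole was lower there by 0.52. RPL29 was also higher there, by 0.50, and RPL39 was nearly equal, with means of 6.534 log2 units in the lower and 6.525 in the higher numbers. For RPL10 the ranges barely met, at 487 to 1167 FPKM in the lower and 1161 to 1918 FPKM in the higher numbers.

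Modelled transcript length moved with the difference between early and middle cells. The lengths implied by the recovered reads were 276 (RPS29) to 4065 bases (RPL28) for members, with a median of 684 bases, beside 2595 bases for all genes with a mean FPKM of at least 1. Across 79 members Spearman's rho between length and the middle-minus-early difference was 0.41, and across 1296 other genes with a mean log2 level of at least 6 it was 0.58. These genes share the same cells, so the values are descriptions. For lengths under 500 bases the median difference was -0.85 over 15 members and -0.72 over 41 other genes, and from 500 to 700 bases it was -0.63 over 26 members and -0.64 over 100 other genes. Short messages of either kind were thus lower by similar amounts.

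The members and other genes parted above 2000 bases, where 6 members had a median of -0.77 and 407 other genes one of 0.21. From 1000 to 2000 bases the medians were -0.20 for 13 members and -0.06 for 555 other genes. The part of length in the stage difference was not tested. In the comparison of hatching classes described below, length had little relation to the difference, with rho of 0.09 for members and 0.09 for the other genes.

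**Figure D2:**
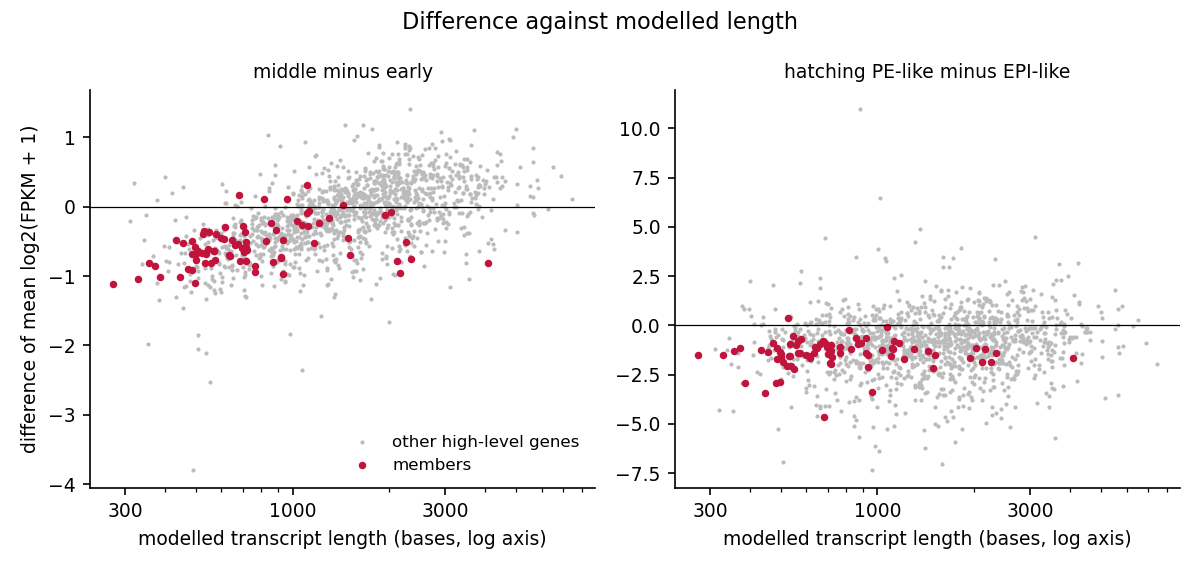
Difference of mean log2(FPKM + 1) (vertical axes, scales differ) against modelled transcript length in bases (log axis) for 79 members and 1296 other genes of mean log2 level of at least 6. Left, middle minus early cells, where short genes of both kinds lie mostly below 0. Right, hatching PE-like minus EPI-like cells, where members lie below 0 at all lengths except RPS15A.

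From middle to late cells the direction of the family difference depended on which title number ranges were compared. Over all cells 70 of 79 members were higher in late cells, where 45.7% of all genes were higher, and the member median was 0.27. No member was higher by 1 log2 unit, beside 3.95% of all genes. The largest differences were those of RPL27A (0.74), RPL24 (0.68), a protein of the bridge between subunits, and RPL22L1 (0.67). The most lowered were RPS27L (-0.46), RPL26L1 (-0.46) and RPL10L (-0.45), all paralogs.

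Among lower title numbers, however, the member median was -0.16 (late minus middle), and among higher numbers it was 0.94. Within the late stage itself the cells numbered 25 to 61 exceeded those numbered 3 to 22 by a member median of 0.61, and the share of FPKM had medians of 13.1% (8.71 to 16.8%) and 9.47% (7.06 to 15.6%). In the middle stage the higher numbers were lower instead, by 0.52. Summed TE markers were lower in the higher numbers of both stages, whereas the family was lower there only in middle cells. The TE medians were 3925 FPKM in the lower and 1033 FPKM in the higher middle numbers, and 6371 and 3142 FPKM in the late ranges. Of 12 TE markers, 7 reached an FPKM of 1 in at least 50% of cells in the lower and 3 in the higher middle numbers. In each late range 5 did. The early ranges (2052 and 2134 FPKM) and the hatching ranges (3250 and 3133 FPKM) had similar TE medians, lower numbers first. The part of TE markers in the differences was not tested. What the ranges reflect cannot be told apart from the stages with these labels. RPL24 shows the pattern over all cells, with medians of 447 FPKM (74.7 to 938) in middle and 708 FPKM (295 to 1518) in late cells and broad overlap.

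**Figure D3:**
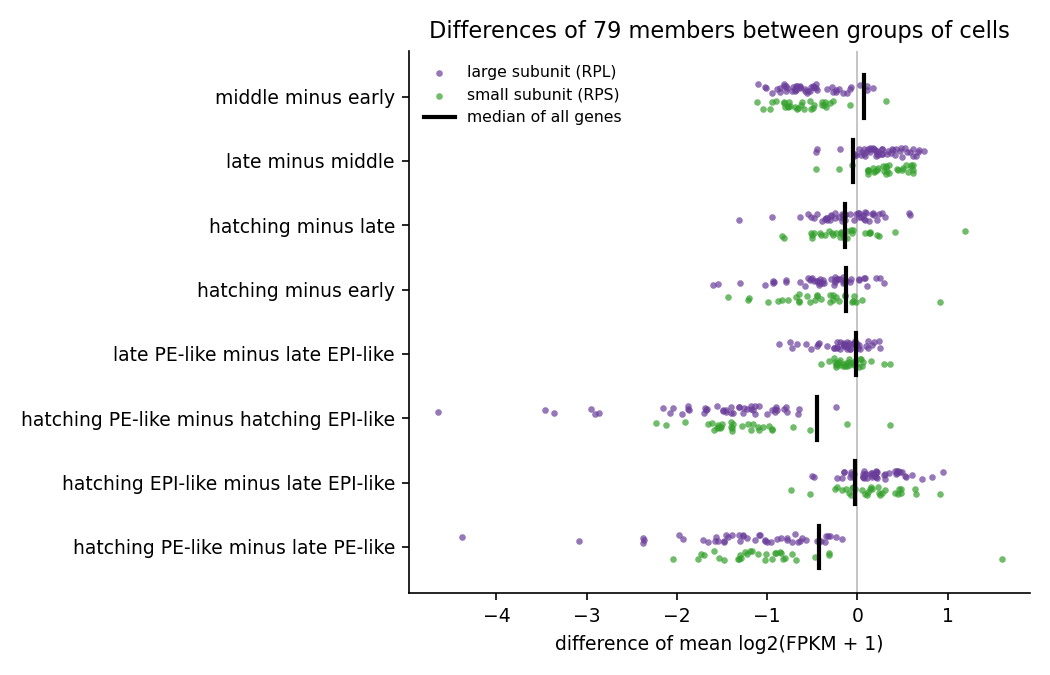
Differences of mean log2(FPKM + 1) of 79 members in 8 comparisons (horizontal axis), 1 point per gene, large-subunit members above small-subunit members. The black bar is the median over all 9781 genes. Most members lie left of the bar for middle minus early, and they lie furthest left for hatching PE-like minus hatching EPI-like cells.

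Hatching cells differed from late cells mainly by class. Over all cells 52 of 79 members were lower in hatching cells, where 59% of all genes were lower, and the medians were -0.15 for members and -0.14 for all genes. Under median-of-ratios scaling the member median was 0.00071, with 39 members lower and 40 higher, so the direction depended on the scaling. A single member was lower by at least 1 log2 unit (RPL26L1, -1.31) beside 9.87% of all genes, and a single member was higher by as much (RPS15A, 1.19) beside 7.26%. Without the 7 PE-like cells the member median of hatching minus all late cells was 0.23. Among the lower title numbers it was -0.26, and among the higher numbers 0.057.

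Against early cells 69 of 79 members were lower in hatching cells, where 56.2% of all genes were lower, with a member median of -0.40. Under median-of-ratios scaling the median was -0.20, with 56 members lower and 23 higher, and with medians over cells in place of means it was -0.14. Lower by at least 1 log2 unit were 7 members, or 8.86%, beside 16.2% of all genes. These were RPL26L1 (-1.60), RPL39 (-1.54), RPS25 (-1.43), RPL39L (-1.30), RPS27L (-1.21), RPS2 (-1.21) and RPL41 (-1.02), followed by RPS20 (-0.99). Of the 7, RPS2, RPL39L and RPL26L1 were higher in hatching cells within the higher title numbers. Their medians there were 68.3, 26.5 and 65.1 FPKM in hatching and 11.65, 20.2 and 63.65 FPKM in early cells. Within the lower numbers they were 43.9, 0.097 and 3.83 FPKM in hatching and 417.5, 26.2 and 104 FPKM in early cells. RPL39, RPS25 and RPS27L had lower means in hatching cells within both ranges. Without the PE-like cells the member median was 0.04, among the lower title numbers it was -0.97, and among the higher numbers 0.17.

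RPS25, a small-subunit protein used in translation from internal entry sites, was lower by at least 1 log2 unit in hatching EPI-like cells too. Its FPKM ran from 73.3 to 345 in early cells (median 142), from 22.6 to 201 in late cells (median 101) and from 1.84 to 192 in hatching cells (median 65.7). The 19 EPI-like cells alone differed from early cells by -1.24, and RPS27L, at -1.18, was the other member past 1 log2 unit in them. For RPS27L this lay in the higher title numbers, with means of 4.69 log2 units in hatching EPI-like and 6.825 in early cells. In the lower numbers its means were 5.66 and 5.60. RPS25 had 5.84 and 6.99 in the higher and 6.13 and 7.285 in the lower numbers. In this comparison 37 of 79 members were lower by any amount and 42 higher, with medians of 0.04 for members and -0.004 for all genes. RPL41, one of the shortest proteins known, had -0.57 there, with medians of 436 FPKM (48.5 to 821) in early and 254 FPKM (146 to 562) in hatching EPI-like cells. All of these ranges overlapped.

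The 8 members that were most raised in hatching over early cells were RPS15A (0.91), RPL3 (0.29), RPL6 (0.25), RPL7A (0.21), RPL24 (0.11), RPLP0 (0.08), RPL23 (0.07) and RPS3 (0.05). RPL3, which shapes the peptide-bond site, had medians of 1666 FPKM (1052 to 2282) in early, 1442 FPKM (1010 to 3462) in middle, 1637 FPKM (1055 to 2921) in late and 2347 FPKM (660 to 3549) in hatching cells. Its low hatching values came from the PE-like cells, which ran from 660 to 1967 FPKM, whereas EPI-like cells ran from 1544 to 3549 FPKM. RPLP0, the base of the stalk that recruits elongation factors and a common reference gene, differed little between stages, with medians of 1299, 1240, 1289 and 1584 FPKM. In hatching PE-like cells it stood at 803 FPKM (428 to 1059), below every hatching EPI-like cell (1232 to 2692).

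The family was lower in hatching PE-like than in hatching EPI-like cells. The share of summed FPKM ran from 4.70 to 9.86% in the 7 PE-like cells (median 7.30%) and from 12.5 to 18.3% in the 19 EPI-like cells (median 13.9%), with no overlap. The cell's median level over members was 8.33 ± 0.42 log2 units (SD over 7 cells) and 9.61 ± 0.19 (SD over 19 cells). No late class stood apart in this way, since late EPI-like cells ran from 7.06 to 16.3% and late PE-like cells from 8.15 to 16.8%.

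Of 79 members, 78 were lower in the PE-like cells, where 65.1% of all genes were lower, and 60 (75.9%) were lower by at least 1 log2 unit, beside 33.7% of all genes. The medians were -1.39 for members, -0.80 for the 1296 other high-level genes and -0.45 for all genes. For 28 members every PE-like cell lay below every EPI-like cell, beside 2% of all genes. Under median-of-ratios scaling, which sets the typical gene equal between cells, the medians were -0.79 for members and -0.15 for all genes, 76 members were lower, and 22 were lower by 1 log2 unit. Relative to all genes the family was thus lower by -0.94 as deposited and by -0.65 under that scaling.

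The difference was present within the shared title numbers. Between the 7 PE-like and the 5 EPI-like cells numbered 1 to 18 the member median was -1.36, beside -0.30 for all genes, and 64 of 79 members were lower by at least 1 log2 unit, beside 31.5% of all genes. For 42 members every PE-like cell lay below every EPI-like cell of this range, beside 4.1% of all genes. The 5 EPI-like cells had a share of 12.9 to 18.3%.

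Other features of the cells moved with the class. PE-like cells had a median of 5680 genes at an FPKM of 1 (4974 to 6117) and 9.74 M reads, and EPI-like cells 6940 genes (5644 to 7629) and 13.2 M reads. The 5 EPI-like cells numbered 1 to 18 had 6539 genes and 9.02 M reads, fewer reads than the PE-like cells. The summed TE markers stood at 5077 FPKM (2689 to 6573) in PE-like and 2682 FPKM (818 to 8507) in EPI-like cells, with VGLL1 at 0 in both. The part of gene number and TE markers in the result was not tested.

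The members most lowered in hatching PE-like cells were large-subunit proteins. RPL26L1, a paralog of the p53-message-binding protein RPL26, stood at 0.27 to 7.35 FPKM (median 0.60) in PE-like and at 6.67 to 150 FPKM (median 59.5) in EPI-like cells, a difference of -4.65. RPL39L followed with -3.46, at most 0.50 FPKM in any PE-like cell against a median of 18.2 FPKM (0 to 76.5) in EPI-like cells. The size of this difference depended on the title numbers. In the lower numbers, which hold all PE-like cells, the 5 EPI-like cells had a median of 0.194 FPKM (0 to 11.15). Their mean was 1.27 log2 units, against 0.191 in the 7 PE-like cells. The 14 EPI-like cells of the higher numbers had a median of 26.5 FPKM (0.643 to 76.5). RPL39L reached an FPKM of 1 in 0 of 7 PE-like cells, which allows a share of up to 40.96% (exact 95% interval), and in 15 of 19 EPI-like cells. Both paralogs overlapped between the classes, RPL26L1 by little.

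RPL14, a core large-subunit protein on the solvent side, separated the classes. It ran from 9.09 to 22.99 FPKM (median 14.4) in the PE-like and from 43.5 to 256 FPKM (median 195) in the EPI-like cells, with a difference of -3.36, and of -2.42 within numbers 1 to 18. RPL39 differed by -2.95, with 3.68 to 34.6 FPKM in PE-like and 29.1 to 261 FPKM in EPI-like cells, which overlapped slightly. Within numbers 1 to 18 its means were closer, at 3.84 log2 units in PE-like and 5.88 in EPI-like cells. RPLP2, a tip protein of the elongation-factor stalk, differed by -2.91, with 4.86 to 58.7 FPKM in PE-like and 57.8 to 184 FPKM in EPI-like cells, which overlapped by little. The class ranges of RPL14 did not meet. RPL22L1 differed by -2.86, from a median of 404 FPKM (139 to 707) in EPI-like to 67.0 FPKM (2.49 to 176) in PE-like cells.

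Of the most abundant members, RPS18, RPL8 and RPL35 differed less on the log2 scale than the member median of -1.39, and RPS12 about as much. RPS18 ran from 2639 to 5255 FPKM in PE-like cells (median 4000) and from 4555 to 7924 FPKM in EPI-like cells (median 5577), a difference of -0.52 with overlap. RPL8 differed by -0.65 and RPL35 by -0.92. RPS12 differed by -1.38, with 1121 to 2954 FPKM against 2967 to 6370 FPKM, which did not overlap. RPS6, the substrate of the growth-regulated S6 kinase, differed by -1.22, at 172 to 1500 FPKM against 1321 to 2106 FPKM. RPL13A, a protein known for regulated release from the ribosome, differed by -1.18, at 263 to 676 FPKM against 692 to 1766 FPKM, again without overlap. RPL7 at -0.90 and RPS27 at -1.28 had differences of similar size.

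**Figure D4:**
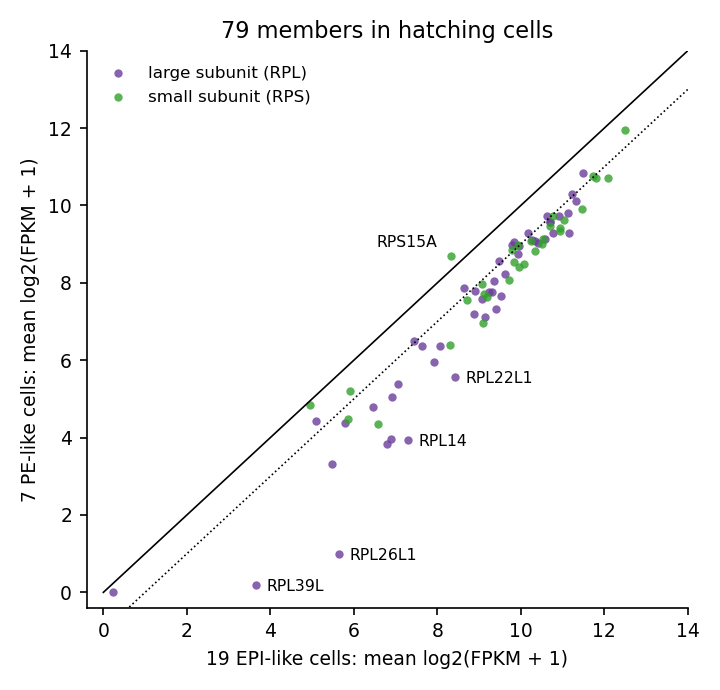
Mean log2(FPKM + 1) of 79 members in 7 hatching PE-like cells (vertical axis) against 19 hatching EPI-like cells (horizontal axis). The solid line marks equal levels and the dotted line 1 log2 unit lower in PE-like cells. RPS15A is the only member above the solid line, and 60 members lie on or below the dotted line.

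In late cells the classes were close. The member median of PE-like minus EPI-like cells was -0.11, beside -0.02 for all genes, and 61 of 79 members were lower in PE-like cells, where 51.5% of all genes were lower. Within lower title numbers the member median was 0.03 and within higher numbers -0.21. The lowest were RPL39L (-0.87), RPL26L1 (-0.75) and RPL39 (-0.73), and the highest were RPS27L (0.36), RPSA (0.30) and RPL23A (0.25), a protein at the exit tunnel. RPL39 ran from 59.8 to 476 FPKM (median 109) in late EPI-like cells and from 17.7 to 280 FPKM (median 86.3) in late PE-like cells, with broad overlap.

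From late to hatching, PE-like cells had lower levels of the family in both comparisons made, whereas the direction in EPI-like cells depended on the title numbers. Among all EPI-like cells 57 of 79 members were higher in hatching cells, where 47.9% of all genes were higher, with a member median of 0.16. Within lower numbers (5 hatching and 9 late EPI-like cells) the median was 0.55 with 72 members higher, beside 45.2% of all genes. Within higher numbers (14 and 12 cells) it was -0.096 with 31 members higher, beside 49.9% of all genes. Over all EPI-like cells RPL29 (0.95), RPS15A (0.91) and RPL10 (0.83) had the largest values. The sizes depended on the title numbers. For RPL29 the late and hatching means were 8.625 and 10.59 log2 units in the lower and 9.619 and 10.02 in the higher numbers. For RPS15A they were 6.924 and 9.65 in the lower and 7.758 and 7.864 in the higher numbers. For RPL10 they were 10.04 and 10.42 in the lower and 10.04 and 11.08 in the higher numbers. RPL29 ran from 291 to 1022 FPKM (median 673) in late EPI-like and from 704 to 2454 FPKM (median 1119) in hatching EPI-like cells. Among the cells' family medians, 12 of 19 hatching EPI-like cells lay above and 7 below the late EPI-like median.

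Among PE-like cells 78 of 79 members were lower in hatching cells, where 66.4% of all genes were lower, with a member median of -1.09 beside -0.42 for all genes. Lower by at least 1 log2 unit were 46 members (58.2%), beside 30.1% of all genes, or 15 members under median-of-ratios scaling. Within lower numbers (7 hatching and 9 late PE-like cells) the median was -0.82, 75 members were lower, beside 62.4% of all genes, and 28 were lower by at least 1 log2 unit, beside 30.3%. All 7 hatching cells lay below the late PE-like median. RPL26L1 had -4.38, RPL39L -3.09, and RPS15A, at 1.60, was the exception. The difference between the steps of the 2 classes was not tested.

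RPS2 and RPS15A departed from the rest of the family within stages. RPS2, a small-subunit protein near the messenger entry, ran from 115 to 1128 FPKM (median 418) in early cells numbered 1 to 28 and from 4.69 to 61.6 FPKM (median 11.7) in those numbered 29 to 48. The ranges did not overlap, and the difference of means was -4.98. RPS2 was the only member with every cell of the higher early numbers below every cell of the lower, beside 0.0307% of all genes. Since the early border was placed where cells change in many genes, this is a description of these libraries.

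RPS2 was also low in the higher numbers of the other stages before hatching. In middle cells it ran from 13.9 to 621 FPKM (median 162) in the lower and from 4.96 to 56.8 FPKM (median 7.56) in the higher numbers, a difference of -3.18. In late cells it ran from 80.9 to 474 FPKM (median 250) and from 5.58 to 119 FPKM (median 36.3), a difference of -2.59. In hatching cells both ranges were low, at 6.38 to 104 FPKM (median 43.9) and 10.99 to 133 FPKM (median 68.3). Depth differed as well, with medians of 9.04 M reads in the lower and 15.1 M reads in the higher early numbers, and its part was not tested.

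RPS15A, which helps shape the small-subunit platform, stood apart at hatching. In early cells it ran from 77.6 to 283 FPKM (median 196), in middle cells from 48.96 to 492 FPKM (median 130), in late cells from 61.6 to 320 FPKM (median 158) and in hatching cells from 153 to 1029 FPKM (median 256). Its high values lay in the hatching cells numbered 1 to 18, at 235 to 1029 FPKM (median 570), whereas those numbered 22 to 47 ran from 153 to 327 FPKM (median 238). The cells of the higher numbers overlapped the early and late ranges. In middle cells numbered 32 to 55, 5 cells stood at 299 FPKM or more and the other 7 at 156 FPKM or less.

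RPS15A was the only member that was not lower in hatching PE-like than in EPI-like cells, at 0.37, but this depended on the title numbers. Within numbers 1 to 18 the 7 PE-like cells ran from 235 to 653 FPKM (median 480) and the 5 EPI-like cells from 606 to 1029 FPKM (median 759), a difference of -0.95. RPL14 and RPS29 also separated the hatching ranges. For these 2 members every cell numbered 22 to 47 exceeded every cell numbered 1 to 18, beside 0.123% of all genes. RPL14 ran from 123 to 256 FPKM in the higher and from 9.09 to 112 FPKM in the lower numbers, which hold all PE-like cells.

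**Figure D5:**
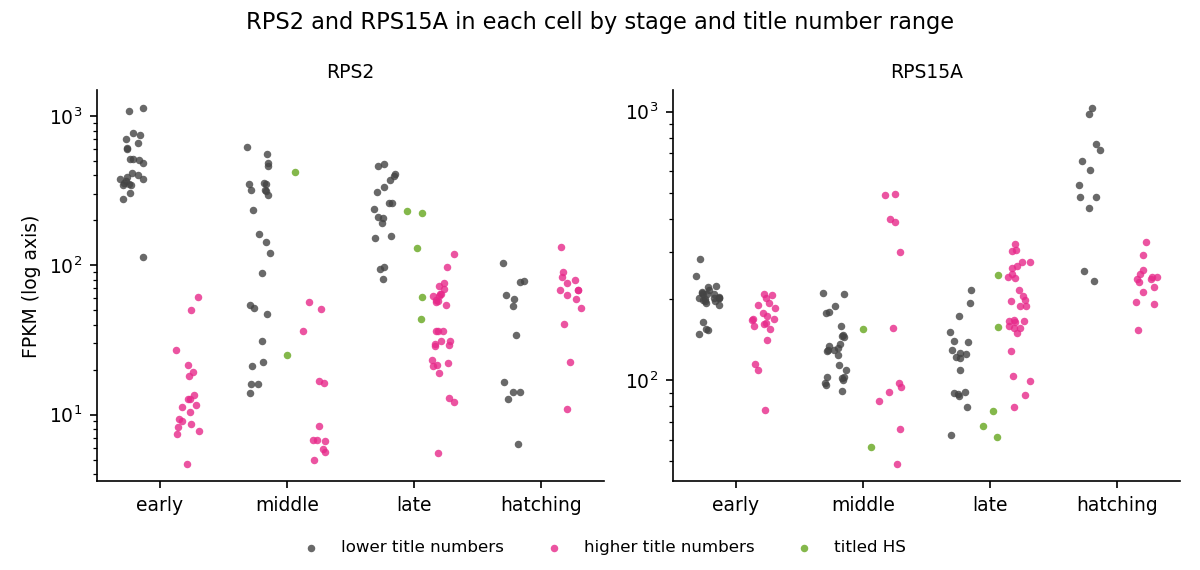
FPKM (log axis) of RPS2 and RPS15A in each of 161 cells by stage and title number range, with the 7 cells titled HS shown apart. RPS2 is low in the higher numbers of early, middle and late cells, and RPS15A is high in the hatching cells numbered 1 to 18 and in 5 middle cells of the higher numbers.

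Cells of a stage differed in the level of the whole family, least in early and most in hatching cells, where EPI-like and PE-like cells were pooled. The SD of the cell's family median was 0.639 over all hatching cells, but 0.192 in hatching EPI-like and 0.424 in hatching PE-like cells. It was 0.238 in early, 0.499 in late EPI-like and 0.386 in late PE-like cells. The median SD over members of log2(FPKM + 1) between cells was 0.33 in early, 0.62 in middle, 0.56 in late and 0.78 in hatching cells. After the cell's own median over members was subtracted it was 0.29, 0.37, 0.31 and 0.39. Other genes of like level had median SDs of 0.64, 0.54, 0.65 and 0.91, so that the members' median was below theirs in early, late and hatching cells and above it in middle cells. In early cells 69 of 79 members had an SD below that of the other genes of like level, in middle cells 37 had, in late cells 67 and in hatching cells 63.

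The median Pearson correlation between pairs of members was 0.27 over 44 early, 0.56 over 39 middle, 0.58 over 52 late and 0.76 over 26 hatching cells. Cells share library depth and, in hatching cells, class, so these values are descriptions. The correlation of the cell's family median with log2 reads was -0.45, -0.32, -0.05 and 0.59, and that with the number of genes at an FPKM of 1 was 0.04, 0.49, 0.04 and 0.74 in the stages in order. Depth and gene number thus moved with the family most in hatching cells, and their part was not tested.

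The steadiest members in early cells were RPL5 (SD 0.18), which with RPL11 can bind the p53 regulator MDM2, RPL7A (0.21) and RPS6 (0.21). The most variable were RPS2 (2.61), RPL39L (2.003), RPL10L (1.51) and RPL26L1 (1.49), of which 3 are paralogs. RPL39L and RPL26L1 were also the most variable in hatching cells, with SDs of 2.38 and 2.35, where RPS18 was the steadiest with 0.34.

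Other ribosomal protein genes that the naming rule does not reach were among the genes most like the family. Among the 8 genes with the highest Pearson correlation, over 161 cells, between their log2(FPKM + 1) and the cell's family median were SLIRP (0.85), RPL36AL (0.82), FAU (0.82), SNRPG (0.79), MIF (0.79), POLR2F (0.77) and C14orf2 (0.77). FAU encodes a ubiquitin-like protein fused to a small-subunit protein, and RPL36AL is a large-subunit paralog. All of these 7 except POLR2F have modelled lengths of 560 bases or less, and the cells share depth and class. FAU ran from 472 to 1643 FPKM (median 837) in hatching PE-like and from 1744 to 3495 FPKM (median 2513) in hatching EPI-like cells, which did not overlap. Of the 4 such genes with rows, GNB2L1 (a small-subunit scaffold) included, all were lower in middle than in early cells (median -0.54) and in hatching PE-like than in EPI-like cells (median -1.25). Of all genes, 43.6% and 65.1% were lower in these comparisons.

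Ribosome assembly genes were lower in hatching PE-like cells too, but showed no common direction from early to middle cells. Of 31 assembly factors with a mean FPKM of at least 1, 20 were higher and 11 lower in middle than in early cells (median 0.09), and all 31 were lower in hatching than in late cells (median -0.70), beside 59% of all genes. All 31 were also lower in hatching PE-like than in EPI-like cells (median -2.72), beside 65.1% of all genes, and 28 by at least 1 log2 unit, beside 33.7%. For this list and those that follow, 43.6% of all genes were lower in middle than in early cells. In hatching against early cells 56.2% of all genes were lower. The other shares of all genes given here apply to the same comparisons of the lists that follow. NOP16, a nucleolar factor of the large subunit, had a mean of 8.72 log2 units in hatching EPI-like and 3.60 in hatching PE-like cells. NOP56, a core protein of the particles that methylate ribosomal RNA, had 5.79 and 2.42, and NOB1, the enzyme that ends small-subunit RNA maturation, had 5.48 and 1.93. In hatching EPI-like minus late EPI-like cells the list had a median of -0.13, with 11 of 31 higher, beside 47.9% of all genes.

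RNA polymerase I, which transcribes ribosomal RNA, had values of similar direction. Of its 15 subunits and factors, 10 were higher in middle than in early cells (median 0.29), all were lower in hatching than in late cells (median -0.83), and 14 were lower in hatching PE-like than in EPI-like cells (median -1.86). TAF1D, a factor of its promoter complex, had means of 6.05 log2 units in hatching EPI-like and 1.59 in PE-like cells, and the subunit POLR1E had 3.69 and 1.13. POLR1D, which RNA polymerase III also uses, differed little between these classes, at 5.64 and 5.84.

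Translation factors and other known messages with a pyrimidine start tract were also lower in hatching PE-like cells. Of 19 such genes, 11 were lower in middle than in early cells (median -0.15), 13 were lower in hatching than in late cells, near the share of all genes (median -0.16, all genes -0.14), and all 19 were lower in hatching PE-like than in EPI-like cells (median -0.99). PABPC1, which binds message tails, differed by -1.05 from early to hatching cells, with means of 7.18 and 6.12 log2 units. TPT1, a growth-associated protein, had -0.75, and EIF3D, an initiation factor subunit, had -0.72.

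Among 17 regulators of translation and growth, 11 were higher and 6 lower in middle than in early cells, and 15 were lower in hatching PE-like than in EPI-like cells (median -1.22). MYC, a transcription factor that raises ribosomal protein genes in many cells, had a mean of 2.58 log2 units in early, 4.86 in middle, 4.41 in late and 4.92 in hatching cells. Its hatching means were 6.49 for EPI-like cells but 0.68 for PE-like cells. MAX, its partner, had lower means at each later stage, at 7.20, 6.71, 5.45 and 3.94. RPS6KB2, an S6 kinase, had means of 4.36 in early and 2.49 in hatching cells.

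Genes of the mitochondrial ribosome and the proteasome, 2 other large complexes, are shown for comparison. Of 68 mitochondrial ribosomal protein genes, 54 were lower in middle than in early cells (median -0.28), 64 were lower in hatching than in late cells (median -0.55), and 62 were lower in hatching PE-like than in EPI-like cells (median -1.21). The median of these genes in hatching minus early cells was -0.91, with MRPS25 at -2.16, MRPS11 at -2.13 and MRPL36 at -1.87. Of 36 proteasome genes, 29 were lower in middle than in early cells (median -0.31) and 32 in hatching PE-like than in EPI-like cells (median -0.62). PSMB10, a subunit of the immune form, differed by -3.48 between early and hatching cells, and the regulatory subunit PSMD10 by -2.68. PSMB9, another subunit of the immune form, had a mean of 2.89 log2 units in early cells and was listed at 0 in every hatching cell.

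Genes tied to nucleolar stress and to handling of cells are given last. Of 9 p53-related genes, 5 were lower and 4 higher in middle than in early cells and in hatching PE-like than in EPI-like cells, with medians of -0.16 and -0.08. CDKN1A, a p53-induced cell cycle inhibitor, had means of 1.62, 1.02, 0.38 and 0.25 log2 units in the stages in order, GADD45A had 2.61, 2.09, 1.40 and 1.00, and SESN1 had 2.26, 2.28, 1.83 and 0.90. Of 11 immediate early and heat shock genes, 8 were lower in middle and all 11 were lower in hatching than in early cells (medians -0.32 and -0.87). FOS, an immediate early transcription factor, had means of 4.36 log2 units in early and 1.56 in middle cells, JUNB 3.67 and 2.03, and DDIT3, a stress-induced factor, 3.24 and 2.77. Their relation to the level of the members was not tested.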

How the data were processed

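The authors deposited 1 table of FPKM values for 16049 gene symbols and 161 cells. Among the tools listed, per the submitters' processing notes, are TopHat2 2.1.0, HTSeq, DESeq2 and FastQC, whose roles are not stated. Genome build and annotation: not given in the sources used here. Libraries were read as 150-base pairs after PCR, per the labels' protocols, which name no molecular identifiers. From the steps of the FPKM values, whole reads were recovered for all 13857 genes with a value in at least 2 cells, with tolerances of 1e-08 (relative) and 1e-05 (absolute). Code for this step and for differences was tested on simulated data.

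Levels are log2(FPKM + 1), a scale that understates differences of low genes. Differences are between means over cells, for genes with a mean FPKM of at least 1. A difference is called from 1 log2 unit. Classes came from Ward clustering in each stage, on 10 principal components of the 1000 most variable genes, without members, listed genes or markers, with 2 to 4 clusters chosen by silhouette; a cluster of at least 5 cells was named EPI-like or PE-like when at least 3 markers of that class, and more than of any other class, were raised. No doublet caller was run, since cells were picked singly. FPKM is relative within a cell, so less of these messages and more of all others cannot be told apart. Named are the 6 highest members, the 8 most raised and 8 most lowered from early to hatching cells, the 3 and 3 of each other comparison, a set of always-named members, the 8 genes most like the family, and 3 genes of each list by absolute hatching-minus-early difference; members named beyond this were chosen after their values were seen, and some genes that the rule names are not reported here. The members and lists were chosen with earlier results of these data known. Alternatives were other pseudocounts, scalings, filters, class rules and subsets of cells. Work was done in Python 3.11.15 with pandas 2.3.3, numpy 2.4.6, scipy 1.17.1 and scikit-learn 1.9.0.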

Additional observations from a re-analysis of the deposited data

How the results depend on the processing

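The member median of late minus middle cells was -0.16 with lower title numbers only and 0.94 with higher numbers only. That of hatching minus late cells was 0.00071 under median-of-ratios scaling, 0.053 with medians over cells, 0.057 with higher numbers only and 0.23 without hatching PE-like cells. That of hatching minus early cells was -0.97 with lower numbers only, 0.17 with higher numbers only and 0.042 without hatching PE-like cells. That of late PE-like minus EPI-like cells was 0.026 with lower numbers only, and that of the hatching classes was -0.79 under median-of-ratios scaling. At 1.5 log2 units in place of 1, the members counted were 0 of 5 for middle minus early, 0 of 2 for hatching minus late and 2 of 7 for hatching minus early cells, fewer by construction. Without the 20 highest other genes the early share was 14.7% in place of 13.2%. For the rest the cause was not tested. The other 100 values under alternatives kept their direction and stayed within the spread between cells or within 1.5 times the count. The 48 values of named members did so too, but their spread was wide, so this says little. Without hatching PE-like cells RPL26L1 went from -1.605 to -0.3525 (SD between cells 1.965). RPL39L went from -1.301 to -0.37 (SD 2.198). Title number ranges were not among the settings for named members. Settings without hatching PE-like cells, and those within title numbers for the classes and their late-to-hatching steps, were chosen after seeing the data. No paired analysis was possible because cells carry no number shared by origin and no test was made. Low members rest on few reads, and cells of a stage are 1 sample.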
